A study of Mus musculus with 6 samples.

Results

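The 46 genes described here act in the G2 and M phases of the cell cycle: mitotic cyclins and kinases, spindle checkpoint, kinetochore and kinesin genes, condensin subunits and cytokinesis genes. They were taken by name from a fixed list, and all 46 were found among the 55401 genes of the count tables and passed the filter on low counts. RNA sequencing was done on CD4+ T cells of mouse spleen, enriched as naive cells with magnetic beads and stimulated through CD3 and CD28 for 24 h. Cells of control mice, given as WT in the labels, were compared with cells of Satb1 flox/flox CD4-Cre mice, called Satb1 cKO here, with 3 libraries in each group. In these mice a Cre recombinase under Cd4 regulatory sequences, which are active from the thymus onward, acts on loxP-flanked Satb1 alleles. The sources used here give no age, sex or strain for the mice. They do not state if the control mice carried Cre, so Cre itself and the loss of Satb1 cannot be told apart. Nor do they tie each library to a mouse of its own. A p-value here sets the difference between groups against the spread within them, and that spread may be only technical.

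A naive T cell rests outside the cell cycle, and stimulation through its antigen receptor and CD28 makes it grow, copy its DNA and then divide. Genes for mitosis are switched on after those for DNA replication: cyclins A and B bind the kinase CDK1 to start mitosis, the kinetochore and kinesins attach and move chromosomes, the spindle checkpoint waits for attachment, and the anaphase promoting complex with its activator CDC20 then releases the sister chromatids. In resting cells many of these genes are held silent by the DREAM complex, and in cycling cells they are driven by MuvB together with B-MYB and FOXM1, both through a short promoter element called the cell cycle genes homology region (CHR). NF-Y, bound at CCAAT boxes, often acts beside it.

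Promoter windows of 300 bases, from 250 bases before to 50 after the annotated start, were found in RefSeq (GRCm38.p6) for 38 of the 46 genes, as 40 windows since Ect2 and Prc1 had several starts; Tpx2, Aurkb, Cdc25c, Incenp, Smc4, Ccna2, Foxm1 and Kif20a have no window here. The windows were searched on both strands for the CHR letters TTTGAA or TTCGAA and for the CCAAT box letters CCAAT; a CHR and a CCAAT match can share at most 1 base. A CHR match was present in 32 of the 40 windows (80.0%), against 19.2% of all 32851 promoter windows in the table, and a CCAAT match in 31 (77.5%), against 37.4%. Within 50 bases on either side of the start, 29 windows (72.5%) held a CHR match, against 5.31% of all windows. Windows of genes lower in Satb1 cKO held a CHR match in 18 of 23 cases and windows of genes that were not called in 12 of 15, so the share with a match was 78.3% and 80.0%. The windows of Kif2c, Kif4 and Pttg1 lie inside the counted gene and do not reach its outer start. For Kif2c, on the minus strand, the window ends at position 117179022 and the counted gene reaches to 117182639. Letters at those outer starts were not searched, and the windows are counted above as they are. A match is a description of letters and not a measured binding site.

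The promoters of Top2a, Ncapd2, Mki67 and Cdc25b, whose transcripts differed with the smallest p-values, are shown because they hold both kinds of match. Those of Cenpe and Mad2l1, which were lower as well, are shown because no CHR match lies in their windows. The full Mad2l1 window ends at position 66535270, before position 66535390 where the counted gene begins. Letters around that position were therefore not searched. Each run goes from 250 bases before the start through the 30 bases from the start on, 5′ to 3′ on the gene's strand, and capitals mark CHR and CCAAT matches on either strand (ATTGG and TTCAAA are the reverse strand letters).
Top2a (chr11:99024160-99024439, minus strand): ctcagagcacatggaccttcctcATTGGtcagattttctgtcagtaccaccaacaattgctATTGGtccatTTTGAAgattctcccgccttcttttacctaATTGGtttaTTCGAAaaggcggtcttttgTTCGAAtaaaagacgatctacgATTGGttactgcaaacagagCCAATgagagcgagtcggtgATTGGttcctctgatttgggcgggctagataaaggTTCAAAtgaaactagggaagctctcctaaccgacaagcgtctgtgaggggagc
Ncapd2 (chr6:125191557-125191836, minus strand): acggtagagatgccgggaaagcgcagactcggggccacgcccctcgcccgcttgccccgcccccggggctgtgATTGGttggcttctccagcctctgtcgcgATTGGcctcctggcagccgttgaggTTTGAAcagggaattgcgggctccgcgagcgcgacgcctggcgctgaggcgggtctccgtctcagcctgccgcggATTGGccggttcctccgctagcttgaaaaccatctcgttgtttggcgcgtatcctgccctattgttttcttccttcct
Mki67 (chr7:135716350-135716629, minus strand): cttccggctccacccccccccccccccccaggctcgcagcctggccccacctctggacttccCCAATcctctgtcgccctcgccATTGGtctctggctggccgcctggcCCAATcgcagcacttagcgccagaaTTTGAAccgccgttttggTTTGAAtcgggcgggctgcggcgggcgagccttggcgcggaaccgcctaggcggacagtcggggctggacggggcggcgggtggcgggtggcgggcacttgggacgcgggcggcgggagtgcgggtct
Cdc25b (chr2:131186698-131186977, plus strand): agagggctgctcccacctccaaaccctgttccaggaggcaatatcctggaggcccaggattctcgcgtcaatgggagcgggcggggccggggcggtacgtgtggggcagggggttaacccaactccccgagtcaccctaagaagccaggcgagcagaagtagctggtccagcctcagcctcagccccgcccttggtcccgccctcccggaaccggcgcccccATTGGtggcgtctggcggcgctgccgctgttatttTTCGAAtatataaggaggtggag
Cenpe (chr3:135212313-135212592, plus strand): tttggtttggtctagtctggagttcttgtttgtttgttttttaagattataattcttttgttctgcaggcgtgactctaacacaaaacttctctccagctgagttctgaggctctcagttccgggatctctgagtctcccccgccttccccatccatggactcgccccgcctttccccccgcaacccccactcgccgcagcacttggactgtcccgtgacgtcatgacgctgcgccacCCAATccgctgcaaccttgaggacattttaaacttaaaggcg
Mad2l1 (chr6:66534971-66535250, plus strand): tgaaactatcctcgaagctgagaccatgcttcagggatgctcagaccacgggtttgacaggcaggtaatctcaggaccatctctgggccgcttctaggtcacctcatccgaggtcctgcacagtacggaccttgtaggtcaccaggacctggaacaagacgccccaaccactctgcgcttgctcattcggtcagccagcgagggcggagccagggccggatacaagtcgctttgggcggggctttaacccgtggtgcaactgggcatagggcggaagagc
Top2a, encoding the topoisomerase that untangles sister chromatids, had 4 CHR matches and 6 CCAAT matches in its window, and Mki67 had 2 and 3. Cdc25b, which went the other way in the expression data, had 1 of each, with the CHR match just after the start.

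**Figure D1:**
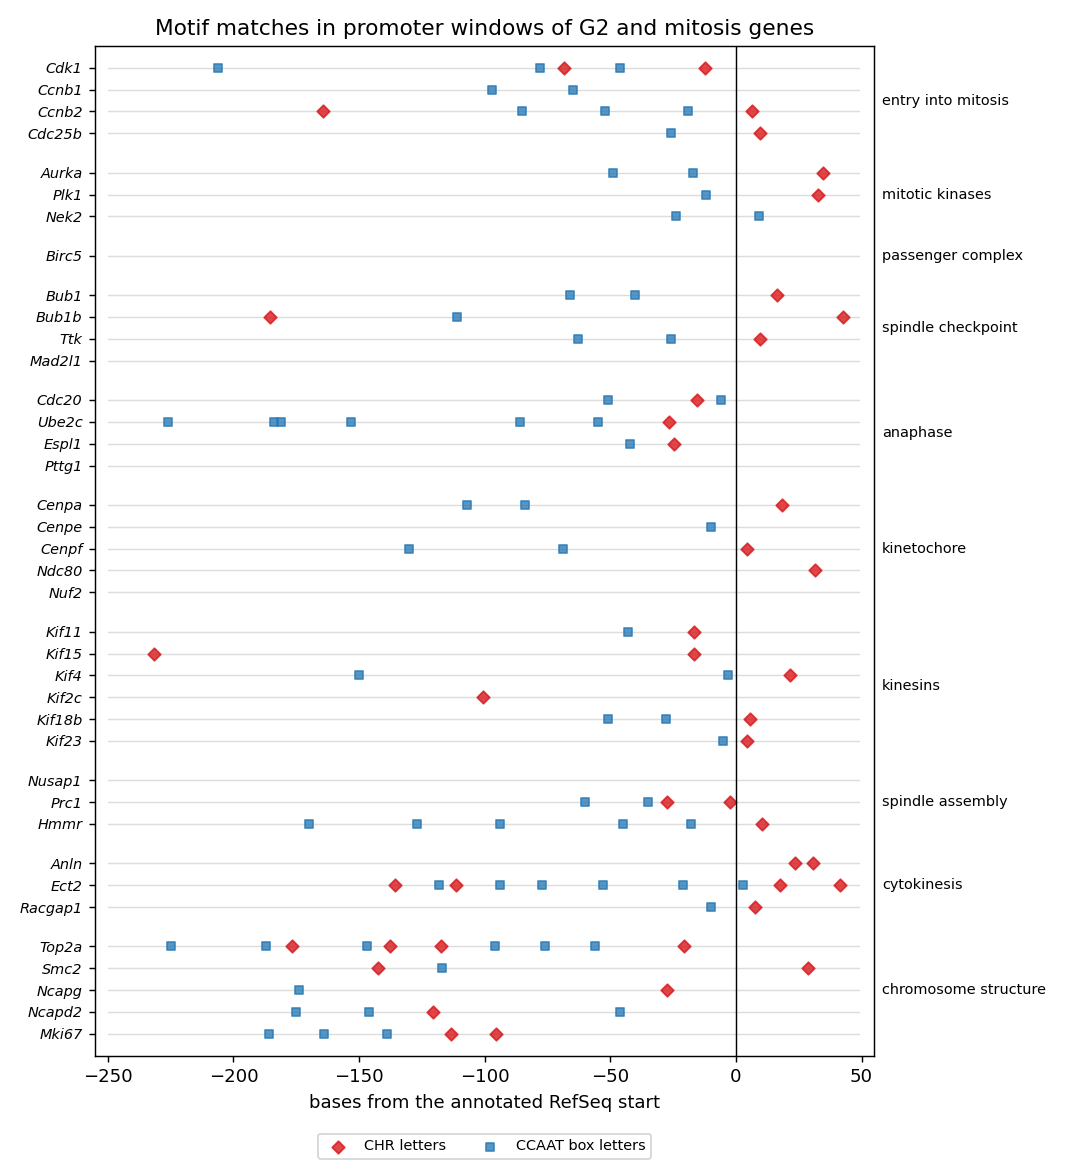
Positions of CHR letters (red diamonds) and CCAAT box letters (blue squares) in the promoter windows of the 38 matched genes, in bases from the RefSeq start (vertical line), with genes grouped by role and the matches of both windows drawn for Ect2 and Prc1. CHR matches lie mostly close to the start, where 29 of 40 windows hold one, and CCAAT matches mostly before it.

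The libraries held 14895389 to 20266626 reads on genes, of which 18427 to 29046 fell on the 46 genes, and levels on the scale of log2 CPM (read counts scaled to a common library size) correlated at 0.992 to 0.993 within groups, across genes. Satb1, the targeted gene, stood at 712, 851 and 727 CPM in control replicates 1, 2 and 3 and at 426, 546 and 462 CPM in Satb1 cKO; these counts can include exons that Cre leaves. Of 11 T cell genes 8 were lower and 1 was higher (72.7% and 9.09%, against 20.7% and 21.6% of all genes tested). Lck stood at 431 to 452 CPM in control and 372 to 380 CPM in Satb1 cKO. Cd5 stood at 482 to 574 and 656 to 690 CPM, and Cd4 at 681 to 721 and 204 to 212 CPM. Most tested markers of other cells were higher in Satb1 cKO, against 21.6% of all genes tested. The summed level of 15 red cell precursor genes ranged from 29.9 to 38.6 CPM in control and from 313 to 1866 CPM in Satb1 cKO, with replicate 1 the lowest, and of the 9 tested genes 7 were called higher and 1 lower. The sum of 12 myeloid genes ranged from 16.0 to 18.7 and from 73.3 to 146 CPM (9 of 9 tested higher, among them Mpo of granulocyte precursors), and that of 11 B cell and plasma cell genes from 231 to 294 and from 264 to 349 CPM (5 of 9 higher). Of 6 NK cell genes, summing to 4.82 to 7.18 and 11.0 to 15.8 CPM, 1 was tested and was higher; no gene of these marker lists was without reads over the 6 libraries. Red cell and granulocyte precursors divide and so carry mitotic transcripts too; their part in the results below was not tested. Reads on no annotated feature made up 9.18% to 9.50% of the control tables and 7.32% to 7.61% of those of Satb1 cKO, a difference whose part was not tested either. Leaving red cell, immunoglobulin, T cell receptor and mitochondrial genes out of the fit gave the same counts of 25 mitotic genes lower and 2 higher. The shares of all genes tested in that fit were 21.2% and 21%. Mitotic reads from other cells stayed in that fit, so it cannot tell what part those cells have.

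In Satb1 cKO cells 25 of the 46 genes were lower and 2 were higher at an adjusted p under 0.05 (quasi-likelihood F test of edgeR, adjusted by Benjamini-Hochberg over 13364 genes, the source of every adjusted p below unless another tool is named). Of all genes tested 20.7% were called lower and 21.6% higher, against 54.3% and 4.35% of these genes. The median log2 fold change of the 46 genes was -0.37, with 42 of 46 below 0, and over all genes tested it was 0.0034. Every Satb1 cKO library lay below every control library for 28 of the genes and above for 2, where the shares over all tested genes were 26.5% and 27.0%. The falls were moderate: the genes called lower kept 51.7% to 78.2% of their control mean. Summed over the 46 genes, the level was 1430, 1677 and 1512 CPM in the control libraries and 1121, 1144 and 1112 CPM in Satb1 cKO, 73.1% of the control mean. In bulk RNA, fewer cells in G2 or mitosis and less of these transcripts per cell cannot be told apart.

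**Figure D2:**
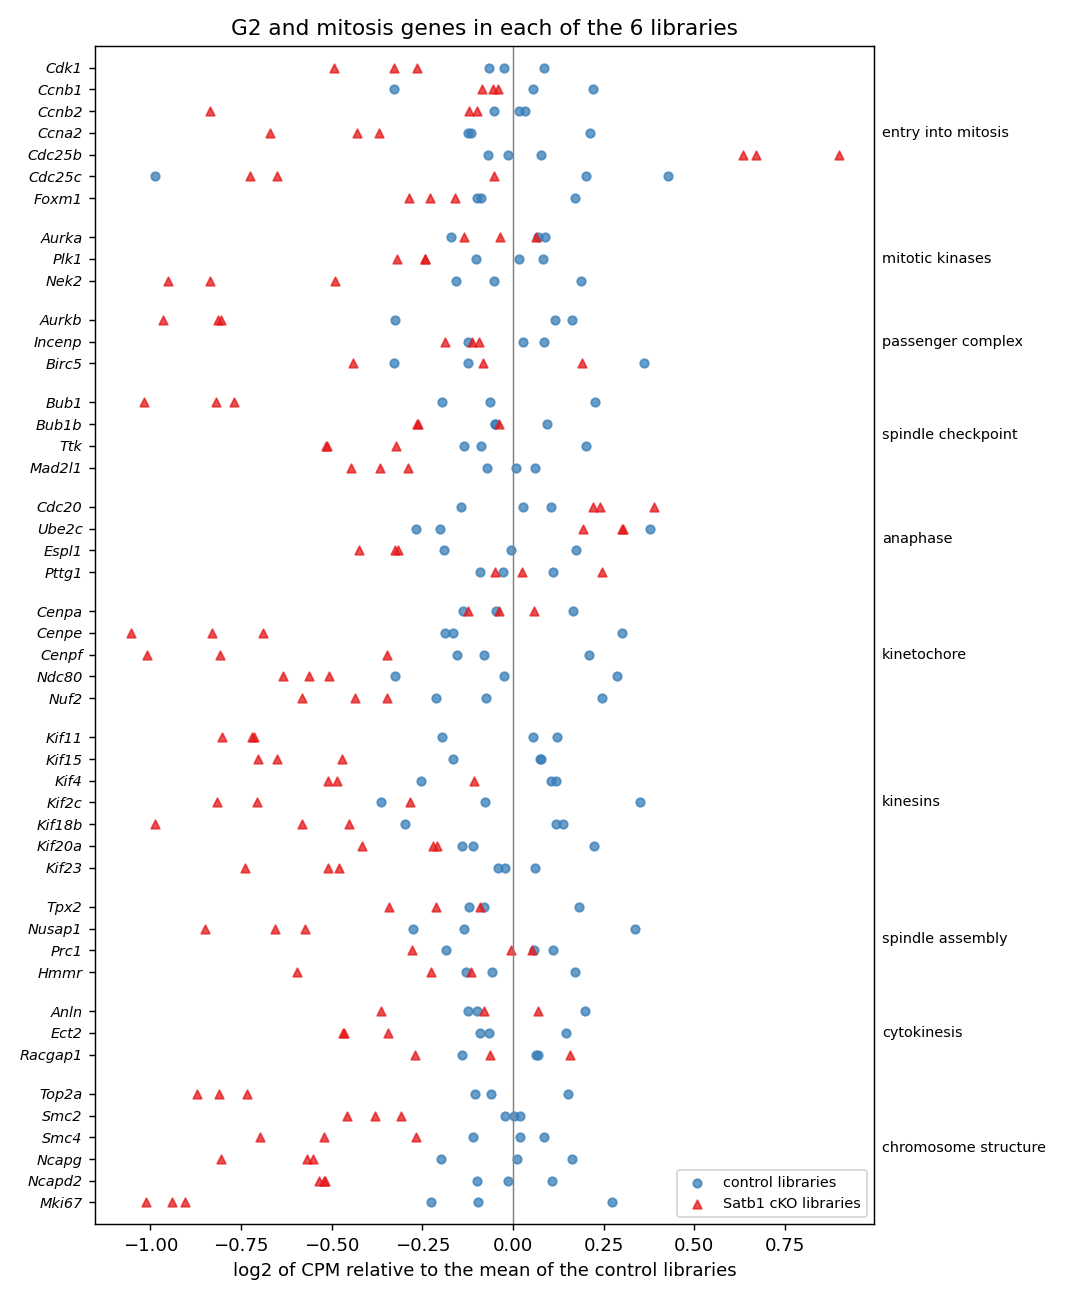
Level of each of the 46 genes in each library, as log2 CPM minus the log2 of the control mean, for 3 control (blue circles) and 3 Satb1 cKO libraries (red triangles), grouped by role. The red triangles lie left of all blue circles for 28 genes and right of them for Cdc25b and Cdc20.

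Genes of chromosome structure fell as a whole group, 6 of 6, against 20.7% of all genes tested. Their median log2 fold change was -0.58. Mki67 encodes Ki-67, the coat protein of mitotic chromosomes that is widely used to mark dividing cells (ENSMUSG00000031004.8, chromosome 7, 135689784 to 135716361, GRCm38). It stood at 80.7, 114 and 88.4 CPM in control and at 46.8, 50.5 and 49.2 CPM in Satb1 cKO. Its log2 fold change of -0.95 (SE 0.106, adjusted p = 3.56e-05) was the lowest of the 46 genes, and the cKO mean was 51.7% of control. Top2a (ENSMUSG00000020914.17, chromosome 11, 98992943 to 99024189) stood at 182, 218 and 188 CPM and at 118, 107 and 112 CPM. It had the smallest p of the 46 genes (log2 fold change -0.80, SE 0.066, adjusted p = 3.69e-06). Ncapd2 (chromosome 6, 125168007 to 125191701), a subunit of condensin I, which compacts chromosomes, stood at 109, 126 and 116 CPM and at 81.4, 81.5 and 80.6 CPM (-0.52, SE 0.054, adjusted p = 1.99e-05). In all 3 of these genes the lowest control library lay above the highest Satb1 cKO library. Ncapg, of the same complex, fell by 0.63 on the log2 scale (SE 0.111), and the SMC core subunits of condensin, Smc2 and Smc4, fell by 0.38 (SE 0.047) and 0.48 (SE 0.090).

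Among the 7 genes of entry into mitosis, 2 were lower, 1 was higher and 4 were not called. The shares called lower and higher were 28.6% and 14.3%, against 20.7% and 21.6% of all genes tested. Ccna2, encoding cyclin A2, which acts in S phase and early mitosis, stood at 29.3, 37.0 and 29.5 CPM in control and at 24.7, 20.1 and 23.7 CPM in Satb1 cKO (log2 fold change -0.48, SE 0.106, adjusted p = 0.00374). Its partner Cdk1, the mitotic kinase, stood at 24.6, 25.2 and 27.3 CPM and at 21.4, 18.3 and 20.5 CPM (-0.36, SE 0.082, adjusted p = 0.00481). For both genes the groups did not overlap. Ccnb1, encoding cyclin B1, stood at 10.8, 15.8 and 14.1 CPM and at 13.0, 12.8 and 13.2 CPM. The cKO libraries lay inside the control range, and the 95% interval of its log2 fold change ran from -0.34 to 0.24. Foxm1, a transcription factor of mitotic genes, stood at 15.01, 17.99 and 14.91 CPM and at 14.3, 13.1 and 13.6 CPM, without overlap but not called (-0.22, SE 0.100, adjusted p = 0.102). Ccnb2 and Cdc25c were counted at under 3 CPM in every library and were not called.

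Cdc25b (chromosome 2, 131186949 to 131198497), encoding a phosphatase that removes the inhibitory phosphates from CDK1, rose in the same libraries. It stood at 22.2, 21.4 and 23.7 CPM in control and at 35.7, 34.8 and 41.8 CPM in Satb1 cKO, 167% of the control mean, and its log2 fold change of 0.74 (SE 0.083, adjusted p = 3.58e-05) was the highest of the 46 genes. Of its relatives in the list, Cdc25c, at 2.07, 2.42 and 0.907 CPM and at 1.73, 1.14 and 1.09 CPM, had a log2 fold change of -0.44 with a 95% interval from -1.22 to 0.34.

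Mitotic kinases, the chromosomal passenger complex and the spindle checkpoint held 5 genes that fell and 5 that were not called. Their shares called lower were 33.3%, 33.3% and 75%, against 20.7% of all genes tested. Bub1, a checkpoint kinase of the kinetochore, stood at 14.0, 18.8 and 15.4 CPM in control and at 7.93, 9.10 and 9.42 CPM in Satb1 cKO (log2 fold change -0.86, SE 0.129, adjusted p = 0.000286). Aurkb, the kinase of the passenger complex that corrects faulty chromosome attachment, stood at 17.4, 24.4 and 23.6 CPM and at 12.4, 12.5 and 11.2 CPM (-0.85, SE 0.128, adjusted p = 0.000307). Both kept about the same share of their control mean, 54.9% and 55.1%. Its partners in the complex did not pass the test: Incenp, the scaffold, stood at 44.3, 51.2 and 49.1 CPM and at 45.1, 42.3 and 44.5 CPM (-0.13, SE 0.064, adjusted p = 0.133). Birc5, encoding survivin, had a log2 fold change of -0.08 with a 95% interval from -0.49 to 0.34. Mad2l1, encoding the checkpoint protein that holds CDC20 in check, stood at 37.5, 41.1 and 39.7 CPM and at 32.2, 30.6 and 28.9 CPM (-0.36, SE 0.065, adjusted p = 0.00101). Ttk, the checkpoint kinase MPS1, fell by 0.44 (SE 0.134, adjusted p = 0.0209), and lost its call without control replicate 3 (0.0919), Satb1 cKO replicate 2 (0.0614) or replicate 3 (0.0669) and in DESeq2 (0.0635). Bub1b, encoding BUBR1, was not called (-0.18, SE 0.079, adjusted p = 0.0874) except without Satb1 cKO replicate 1 (0.0206), and Incenp was called lower without control replicate 1 (0.0186).

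Among the kinases Nek2, Plk1 and Aurka, 1 of 3 was lower (33.3%, against 20.7% of all genes tested). Nek2, which separates centrosomes, stood at 5.12, 6.51 and 5.51 CPM in control and at 3.20, 4.06 and 2.96 CPM in Satb1 cKO, without overlap (log2 fold change -0.74, SE 0.177, adjusted p = 0.00604). Plk1, which drives several steps of mitosis, stood at 5.61, 6.38 and 6.09 CPM and at 5.09, 5.09 and 4.83 CPM. These groups did not overlap, but the gene was not called (-0.26, SE 0.137, adjusted p = 0.147). Aurka, the centrosome and spindle pole kinase, had a log2 fold change of -0.04 with a 95% interval from -0.30 to 0.23.

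Kinetochore genes were lower in 4 of 5 cases and kinesin genes in 5 of 7, with none higher. These shares were 80% and 71.4%, against 20.7% of all genes tested. Cenpe, a motor protein of the kinetochore, stood at 15.9, 22.3 and 16.1 CPM in control and at 8.72, 10.2 and 11.2 CPM in Satb1 cKO (log2 fold change -0.85, SE 0.146, adjusted p = 0.000757). Ndc80, of the complex that grips microtubules, stood at 12.3, 18.7 and 15.1 CPM and at 10.4, 10.8 and 9.90 CPM (-0.56, SE 0.143, adjusted p = 0.00869). Its partner Nuf2 fell by 0.45 (SE 0.130) and Cenpf, of the outer kinetochore, by 0.68 (SE 0.182). Nuf2 lost its call without control replicate 2 (adjusted p = 0.0635) or Satb1 cKO replicate 2 (0.0568). The exception was Cenpa, the histone that marks centromeres, with a log2 fold change of -0.03 and a 95% interval from -0.29 to 0.23.

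Kif11, encoding the motor Eg5 that pushes spindle poles apart, stood at 37.0, 38.7 and 31.1 CPM in control and at 21.7, 21.6 and 20.4 CPM in Satb1 cKO (log2 fold change -0.75, SE 0.086, adjusted p = 4.36e-05). Kif15, which can act beside Eg5, stood at 21.6, 25.5 and 25.5 CPM and at 14.9, 15.4 and 17.4 CPM (-0.60, SE 0.096, adjusted p = 0.000456). Neither gene showed overlap between the groups. Kif18b and Kif2c, which shorten microtubules, fell by 0.66 (SE 0.166) and 0.56 (SE 0.208), and Kif23, a motor of the central spindle, by 0.58 (SE 0.112). Kif2c, at 5.37 to 8.80 and 3.92 to 5.67 CPM, was the 1 called gene whose groups overlapped. Its call was lost without control replicate 2 (adjusted p = 0.195), control replicate 3 (0.0828), Satb1 cKO replicate 2 (0.122) or Satb1 cKO replicate 3 (0.150), and in DESeq2 (0.0684). Kif4 and Kif20a were not called, at log2 fold changes of -0.34 (SE 0.149) and -0.27 (SE 0.134). Kif4 was called lower without control replicate 1 (adjusted p = 0.0183) or Satb1 cKO replicate 1 (adjusted p = 0.0279), and with no filter on low counts (adjusted p = 0.0389).

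In spindle assembly and cytokinesis, 2 of 7 genes were lower and 5 were not called. The shares called lower were 25% of 4 and 33.3% of 3 genes, against 20.7% of all genes tested. Nusap1, which bundles spindle microtubules, stood at 8.22, 11.4 and 7.45 CPM in control and at 5.72, 6.07 and 5.01 CPM in Satb1 cKO (log2 fold change -0.68, SE 0.171, adjusted p = 0.00773). Ect2, which activates RhoA for the cleavage furrow, stood at 20.6, 23.9 and 20.3 CPM and at 17.0, 15.6 and 15.6 CPM (-0.42, SE 0.090, adjusted p = 0.00294). Tpx2, an activator of Aurora A, stood at 18.2, 22.5 and 18.7 CPM and at 18.6, 17.1 and 15.6 CPM, with overlap (-0.20, SE 0.103, adjusted p = 0.134). Anln, encoding the furrow protein anillin, stood at 4.78, 5.98 and 4.86 CPM and at 5.46, 4.92 and 4.04 CPM, also with overlap (-0.10, SE 0.168). Racgap1, Prc1 and Hmmr were not called either, at log2 fold changes of -0.04, -0.06 and -0.29 (SE 0.107, 0.134 and 0.166). Racgap1 forms the centralspindlin complex with the product of Kif23, which was called lower.

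Of the 4 genes of the metaphase to anaphase step 1 was higher, 1 was lower and 2 were not called. The shares called lower and higher were 25% each, against 20.7% and 21.6% of all genes tested. Cdc20, the activator of the anaphase promoting complex, stood at 15.3, 18.1 and 17.2 CPM in control and at 22.1, 19.6 and 19.9 CPM in Satb1 cKO, 122% of the control mean (log2 fold change 0.29, SE 0.091, adjusted p = 0.0236). Ube2c, its ubiquitin-conjugating enzyme, stood at 5.56, 8.33 and 5.31 CPM and at 7.88, 7.32 and 7.91 CPM, with control replicate 2 above all others (0.28, SE 0.171, adjusted p = 0.221). Pttg1, encoding securin, had a log2 fold change of 0.08 with a 95% interval from -0.15 to 0.32. Espl1, encoding separase, the protease that securin blocks, stood at 19.1, 24.6 and 21.7 CPM and at 17.4, 16.3 and 17.5 CPM and was lower (-0.35, SE 0.099, adjusted p = 0.0145). Several of these calls depended on 1 library. Cdc20 lost its call without control replicate 1 (adjusted p = 0.0967), control replicate 3 (0.0539) or Satb1 cKO replicate 1 (0.0878) and in DESeq2 (0.0798), and Espl1 without control replicate 2 (0.0562). Without control replicate 2, Ube2c was called higher (log2 fold change 0.49, adjusted p = 0.0234).

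**Figure D3:**
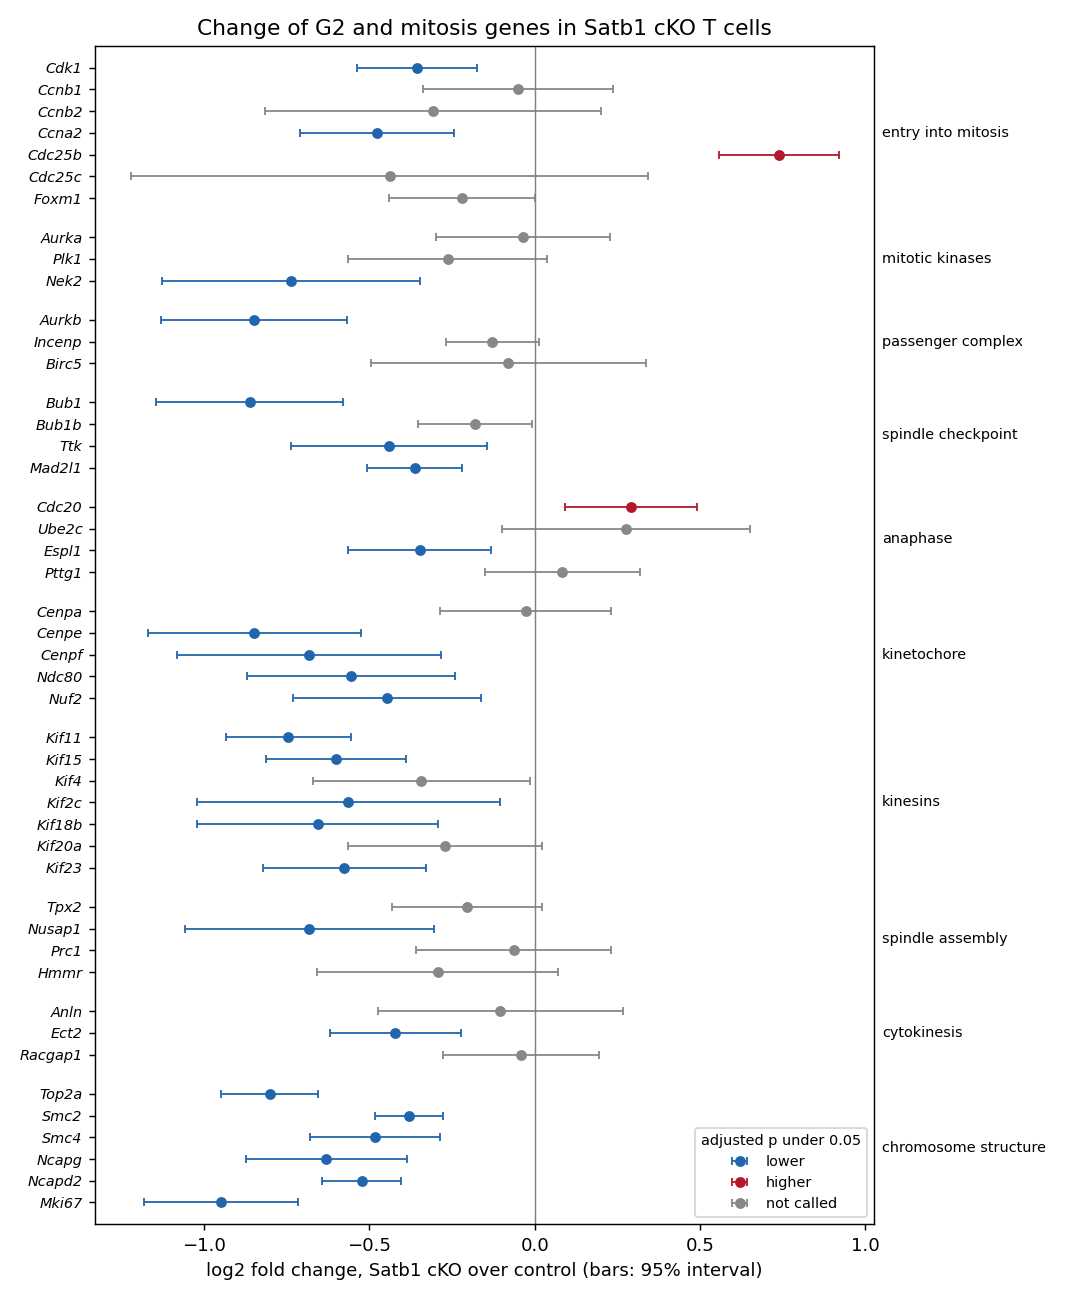
Log2 fold change of each of the 46 genes, Satb1 cKO over control (points) with its 95% interval (bars), grouped by role and coloured by call at an adjusted p under 0.05. Blue genes are lower (25), red genes higher (2, Cdc25b and Cdc20) and grey genes not called (19), of which 17 lie below 0.

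The 19 genes that were not called had a median control level of 10.2 CPM and a median SE of 0.134, and the 25 called lower had 21.6 CPM and 0.111. For 4 of the 19, Ccnb2, Foxm1, Plk1 and Kif20a, all Satb1 cKO libraries lay below all control libraries. The same held for 26.5% of all genes tested, called or not. Per kb of merged exons, Smc4 had the highest control level, 65.6 ± 4.46 RPKM (reads per kb of exon, scaled as CPM; SD, n = 3), and 46.9 ± 7.08 in Satb1 cKO. Smc2 (23.0 ± 0.316), Top2a (21.7 ± 2.11) and Ncapd2 (18.6 ± 1.35) came next in control; the first and second of these did not differ beyond their spread. In Satb1 cKO the order within this trio was Smc2 (17.6 ± 0.907), Ncapd2 (12.9 ± 0.0803) and Top2a (12.4 ± 0.607), the last 2 again within their spread. Cdc25c (0.365 ± 0.161) and Cenpf (0.519 ± 0.0714) had the lowest control levels per kb. Some genes share exons with a gene on the opposite strand, where reads cannot be assigned with certainty: Kif20a shares 29.3% of its exon length with Cdc23, Ube2c 22.8% with Tnnc2, Kif4 15.1% with Pdzd11, Ncapg 13.4% with Lcorl, Cdc25c 12.7% with Gm3550, Ccna2 12.5% with Exosc9 and Prc1 11.1% with Rccd1.

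Exon length moved with the result. Of the 46 genes, 4 of the 16 shortest (1531 to 4338 bases of merged exons) were called lower and 2 higher, against 9 and 0 of the 15 in the middle and 12 and 0 of the 15 longest (6341 to 15433 bases). The medians of log2 fold change in these classes were -0.15, -0.42 and -0.58. Over 9336 protein-coding genes outside the cell cycle lists and in the same CPM range, 16.9%, 23.2% and 31.7% were called lower in the corresponding length classes and 26.6%, 22.7% and 19.1% higher, with medians of 0.043, -0.012 and -0.054. Among 29 S phase genes the medians were -0.39, -0.49 and -0.34. The part of transcript length in the falls of the mitotic genes was not tested.

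**Figure D4:**
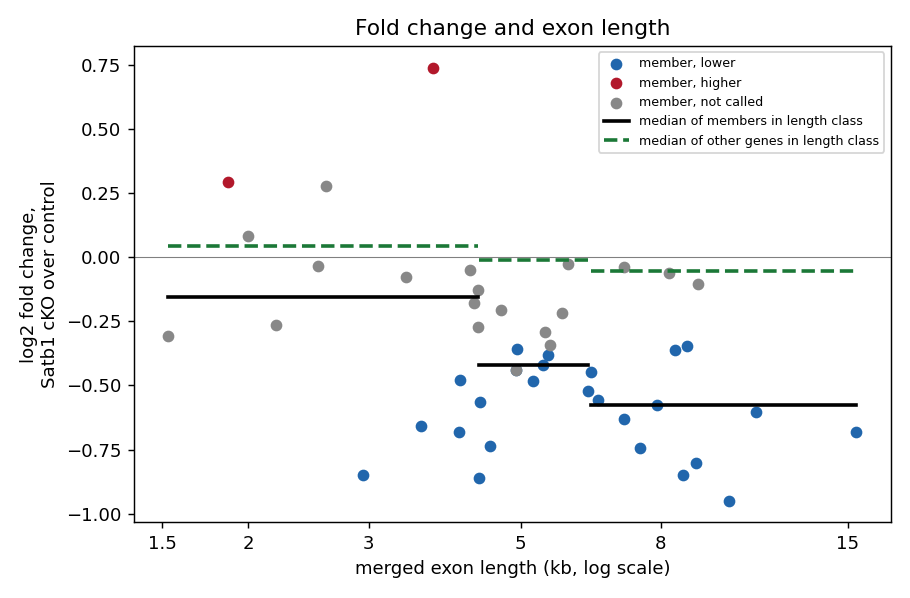
Log2 fold change, Satb1 cKO over control, against merged exon length in kb (log scale) for the 46 genes, coloured by call, with the median of these genes (black lines) and of 9336 other protein-coding genes (green dashed lines) in each length class. The medians of the 46 genes go from -0.15 in the short to -0.58 in the long class and those of other genes from 0.043 to -0.054.

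The 46 genes also varied together between libraries of 1 group. Control replicate 2 was the highest control library for 38 of the 46 genes and replicate 1 the lowest for 32, while over all tested genes control replicate 2 was highest for 33.2%. The median of the 46 genes, as log2 CPM minus the control mean, was -0.11, 0.16 and -0.03 in control replicates 1, 2 and 3 and -0.28, -0.47 and -0.43 in the Satb1 cKO replicates. Satb1 cKO replicate 1 was highest in its group for 25 of the 46 genes, against 33% of all tested genes. Without control replicate 2, 22 genes were called lower and 3 higher, with a median log2 fold change of -0.33. Of all genes tested in that fit, 17.4% were lower and 17.5% higher. Without Satb1 cKO replicate 1, 27 of the 46 genes were lower and 1 higher, with a median of -0.42, against 17.3% and 19.3% of all genes tested.

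Further genes of the same machinery were counted in lists chosen by function, with earlier results of these data known. Of 37 other kinetochore and centromere genes 17 were lower and 2 higher (45.9% and 5.41%). Of 34 other spindle, kinesin and cytokinesis genes 17 were lower and 1 higher (50% and 2.94%). Of 14 other condensin and cohesin genes 10 were lower and 1 higher (71.4% and 7.14%). Over all genes tested the shares were 20.7% and 21.6%. The median log2 fold changes of these lists were -0.31, -0.28 and -0.25. Hjurp, the chaperone that loads CENP-A at centromeres, fell from 173 ± 11.3 CPM in control to 102 ± 0.570 CPM in Satb1 cKO (n = 3, SD). Its log2 fold change was -0.76 (SE 0.050, adjusted p = 6.34e-07), and Cenpa itself did not pass the test. Kntc1, of the checkpoint complex RZZ, fell by 0.82 (SE 0.118) and Cenpk by 0.95 (SE 0.132), and Zwint, which links that complex to the kinetochore, rose (0.37, SE 0.043, adjusted p = 4.49e-05). Stmn1, encoding the microtubule destabiliser stathmin, fell from 71.5 ± 9.73 to 37.7 ± 4.25 CPM (adjusted p = 2.95e-05), and Arhgap11a, Kif20b and Kifc1 fell by 0.65, 0.64 and 0.60 on the log2 scale. The condensin II subunits Ncapd3 and Ncapg2 fell by 0.52 (SE 0.049) and 0.67 (SE 0.069), close to Ncapd2 and Ncapg of condensin I. The cohesin genes Smc3 and Nipbl fell by 0.33 and 0.38.

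Of 17 genes of the anaphase promoting complex and its cofactors 5 were higher and 2 lower (29.4% and 11.8%, against 21.6% and 20.7% of all genes tested), with a median of 0.044; the difference from the other lists was not tested. Anapc2, its cullin subunit, rose by 0.33 on the log2 scale (SE 0.044, adjusted p = 0.00013) and Ube2s, which extends ubiquitin chains, by 0.30 (SE 0.056). Fbxo5, encoding the inhibitor EMI1, fell by 0.52 (SE 0.080, adjusted p = 0.000357), and Anapc1 fell by 0.21 (SE 0.037). Of 14 MuvB, DREAM and NF-Y genes 5 were lower and 2 higher (35.7% and 14.3%, against 20.7% and 21.6% of all genes tested). Rbl1, encoding the pocket protein p107, fell from 120 ± 10.3 to 80.1 ± 4.32 CPM (-0.58, SE 0.065), E2f5 and E2f4 rose by 0.57 (SE 0.118) and 0.17 (SE 0.039), and Rbbp4 fell by 0.17 (SE 0.039). Mybl2, encoding B-MYB, was at 30.2 ± 6.32 and 28.0 ± 2.08 CPM and was not called (adjusted p = 0.558); it was chosen after its values were seen.

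Of 11 genes that hold back mitotic entry 4 were lower and 2 higher (36.4% and 18.2%, against 20.7% and 21.6% of all genes tested). Cdkn1a, encoding the CDK inhibitor p21, rose and stood at 167, 116 and 122 CPM in control and at 247, 245 and 274 CPM in Satb1 cKO (log2 fold change 0.92, SE 0.111, adjusted p = 6.42e-05). Gadd45b, a stress gene whose product can bind CDK1, rose from 103 ± 14.6 CPM to 203 ± 9.95 CPM (adjusted p = 4.35e-06). Chek1, the DNA replication checkpoint kinase, and Ccng2, a cyclin of non-dividing cells, fell by 0.53 (SE 0.060) and 0.84 (SE 0.094).

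Of 29 S phase genes 27 were lower and 0 higher (93.1% and 0%, against 20.7% and 21.6% of all genes tested). Their median log2 fold change was -0.39, with single values from -0.66 to -0.09. The spread was wider for the mitotic genes, from -0.95 to 0.74, at a median of -0.37. The mitotic list is longer, and its median control level was 15.7 CPM, against 76.8 CPM for S phase genes. Whether the 2 lists differ was not tested. S phase genes summed to 5051 to 5424 CPM in control and 4039 to 4209 CPM in Satb1 cKO, 78.2% of the control mean.

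**Figure D5:**
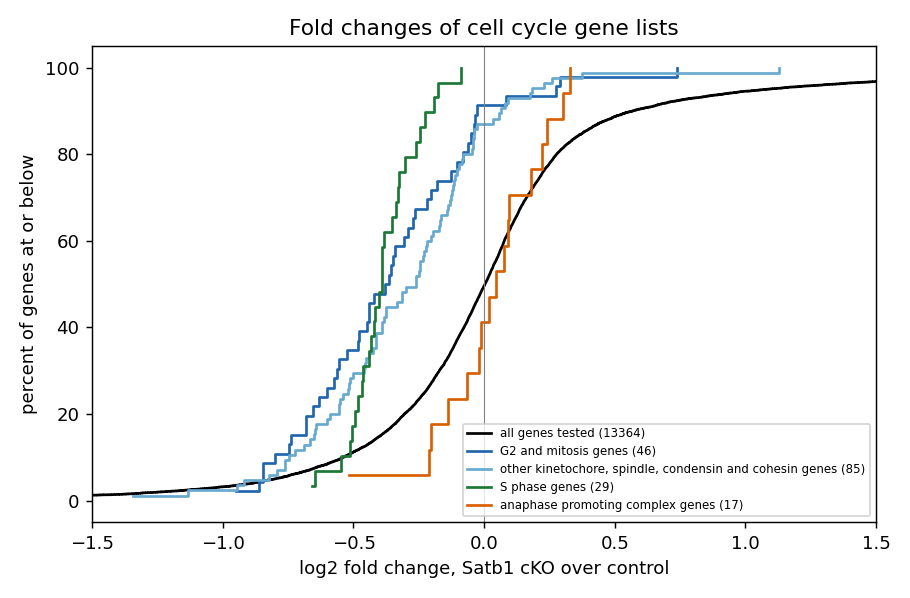
Cumulative share of genes (percent) at or below each log2 fold change, Satb1 cKO over control, for all 13364 genes tested and for 4 lists, with the number of genes in brackets. At their medians the curves of the mitotic, related and S phase lists lie left of that of all genes. The medians are -0.37 for the 46 genes, -0.39 for S phase genes and 0.044 for the anaphase promoting complex. In the lower tail the curve of all genes begins further left, at -6.84, outside the axis. In the list of 17, 1 step is 1 gene.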

How the data were processed

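For each of the 6 samples the authors deposited 1 table of raw read counts, whole numbers for 55401 genes. The submitters' processing notes name STAR 2.7.3a, HTSeq 0.12.4 and mm10; annotation release and strand setting were not given in the sources used here. Library sizes and tests leave out the 5 summary lines that end each table: 7.32% to 9.50% of reads had no feature, 5.40% to 5.57% were ambiguous and 2.92% to 3.16% not unique. Symbols, positions and merged exon lengths came from GENCODE M21 (GRCm38), matching 55141 identifiers. In R 4.3.3, edgeR 4.0.16 tested the 13364 genes left by filterByExpr, after TMM scaling, with its quasi-likelihood fit of the 2 groups and Benjamini-Hochberg adjustment. The SE is the log2 fold change divided by the root of its F statistic. CPM use TMM-scaled library sizes. Scripts were tested on simulated counts.

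The genes, lists and rules were chosen with earlier results of these data known. Values in every library are given for Mki67, Top2a, Cdk1, Ccnb1, Foxm1, Plk1, the 2 genes of smallest p in each role and the 3 highest and 3 lowest fold changes; those of Cdc25c and Cdkn1a were added after they were seen. Each functional list names up to 4 called genes of smallest p, and each cell type list up to 3 genes by mean CPM. The 12 alternatives were DESeq2 1.42.0 (its size factors, and its test), upper-quartile scaling, no filter, red cell, immunoglobulin, T cell receptor and mitochondrial genes left out, a replicate block, and each library left out.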

Additional observations from a re-analysis of the deposited data

How the results depend on the processing

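Under the 12 alternatives, 22 to 27 of the 46 genes were called lower and the median log2 fold change ran from -0.43 to -0.33. The share of all genes called lower ran from 16.4% to 21.5% with the filter on low counts. Without it, over 26132 genes with reads, it was 8.6% in the DESeq2 test and 11.5% in edgeR. Of the 25 genes, 21 were called lower in each alternative. The exceptions were Kif2c, Ttk, Nuf2 and Espl1, whose calls were lost in some. The count of the 46 genes called higher was 1 with the DESeq2 test, against 9.51% of all genes. It was 1 to 3 when 1 library was left out, against 17.3% to 21.1% of all genes tested. With the replicate block, 24 genes were lower and 2 higher, against 20.2% and 21.4% of all genes tested. Kif2c lost its call in that fit (adjusted p = 0.0800). Deviations of same-numbered libraries correlated at -0.013 to 0.028 and those of differently numbered libraries at -0.070 to 0.046. With 3 libraries in each group, these values cannot show whether the numbers pair the samples. Leaving out 1 library moved the log2 fold changes of 8 uncalled genes across 0: Ccnb1 from -0.21 to 0.064, Birc5 from -0.25 to 0.12, Cenpa from -0.11 to 0.052, Aurka from -0.12 to 0.0079, Pttg1 from -0.013 to 0.14, Prc1 from -0.17 to 0.024, Racgap1 from -0.16 to 0.054 and Anln from -0.21 to 0.00027. Depth limits the rarest genes: Cdc25c had 92 reads over the 3 control libraries.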
